A study of Mus musculus with 10 samples.

Results

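In mouse liver, 220 genomic regions carried a peak of the transcription factor XBP-1 in both wild-type control libraries (WT) and in neither library from mice with a liver knockout of Ern1 (Ern1-LKO). They are called WT-only regions here. They were chosen by that pattern alone, so their presence in WT and absence in Ern1-LKO libraries is the selection and not a result. Peaks of the 4 libraries that overlapped by at least 1 bp were merged into 43592 regions, of which the WT-only regions made up 0.505%. The reverse pattern, a peak in both Ern1-LKO libraries and in neither WT library, was seen in 0 regions (0.00%). That pattern needs a peak in Ern1-LKO replicate 1, whose list of 698 peaks touched 1.53% of all merged regions. Few regions could therefore show it, and the 2 counts are not a like comparison. Another 2202 regions had a peak in both WT libraries and in at least 1 Ern1-LKO library. These are called the shared regions, and the 220 regions were 9.08% of the 2422 regions in both WT libraries.

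Ern1 encodes IRE1, a sensor in the membrane of the endoplasmic reticulum (ER). When unfolded proteins build up, IRE1 cuts the Xbp1 messenger RNA, and the spliced message yields XBP-1s, the active transcription factor that the antibody used here was raised to detect. XBP-1s is known for switching on genes for protein folding, degradation and vesicle transport in secretory cells, and in liver also genes of lipid synthesis.

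All samples were livers of C57BL/6J mice, with 2 libraries for each of 4 groups. The WT mice were labelled wild-type controls of the knockout, and the Ern1-LKO mice carried a liver-specific Ern1 knockout. The Fed and Fasted mice were wild-type and had been fed or fasted. The labels do not give the length of the fast, the feeding state of the WT and Ern1-LKO mice, the Cre driver, or whether replicates were separate animals. The spread between replicates, and any p-value over libraries, may therefore be technical rather than biological. Peak lists hold no RNA levels, so loss of Ern1 could not be checked from them.

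The libraries of a group differed widely before any selection. Ern1-LKO replicate 1 listed 698 peaks and Ern1-LKO replicate 2 listed 30796, from 12.0 and 4.34 M kept tags (M, 1e6 tags). WT replicate 1 listed 6258 and WT replicate 2 listed 30327, from 14.1 and 9.18 M. Among regions in both WT libraries, nearly all that were kept out were kept out by Ern1-LKO replicate 2, whose list touched 2182 of the 2202 shared regions, against 446 for Ern1-LKO replicate 1. Without Ern1-LKO replicate 1 the pattern gave 240 regions, and without Ern1-LKO replicate 2 it gave 1975. With WT replicate 1 or WT replicate 2 left out it gave 9968 or 3946. Fed and Fasted lists ranged from 19237 peaks (Fasted replicate 2) to 82975 peaks (Fed replicate 1). They were called against a different input library from the WT and Ern1-LKO lists, so folds are compared here only as ranks within a list or as values side by side.

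XBP-1 is known to bind DNA with an ACGT core, and CCACG is part of the ER stress response element. Sequences just upstream of start sites inside WT-only regions are shown to make these letters visible at named members. They are RefSeq sequences of GRCm38.p6, the assembly of mm10, read 5′ to 3′ on the strand of the gene, and capitals mark ACGT or CCACG on either strand. The 2 motifs overlap where CCACGT or its reverse occurs. The stretch for Cope, a subunit of the COPI vesicle coat, was chr8:70302517-70302766 (plus strand). That for Os9, a lectin of ER-associated degradation, was chr10:127121161-127121391 (minus strand). Piga, which acts in the first step of GPI anchor synthesis, gave chrX:164419530-164419779 (plus strand). Sec22b, a SNARE of ER to Golgi transport, gave chr3:97901110-97901226 (plus strand) and holds neither motif. Calu, the ER calcium-binding protein calumenin, gave chr6:29347856-29348105 (plus strand) and was chosen after its sequence was seen. The printed stretches are examples only. Of 84 such stretches, 46 held ACGT, 40 held CCACG and 61 held at least 1 of them. Some stretches overlap, such as those of Chid1, or those of Cope and Ddx49, so the counts are not of separate sequences. The stretches of the secretory genes Stx18, Stt3a, Sec11a and Sec13, not printed, held neither motif.
Cope: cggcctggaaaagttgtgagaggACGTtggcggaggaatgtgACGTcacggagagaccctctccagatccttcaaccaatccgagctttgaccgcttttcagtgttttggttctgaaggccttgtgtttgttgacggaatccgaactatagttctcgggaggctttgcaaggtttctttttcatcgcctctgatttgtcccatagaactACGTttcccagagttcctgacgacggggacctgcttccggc
Os9: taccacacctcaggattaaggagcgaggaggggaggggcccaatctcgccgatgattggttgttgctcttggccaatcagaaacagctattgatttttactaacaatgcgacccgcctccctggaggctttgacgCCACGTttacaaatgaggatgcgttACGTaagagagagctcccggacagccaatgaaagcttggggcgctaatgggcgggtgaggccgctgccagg
Piga: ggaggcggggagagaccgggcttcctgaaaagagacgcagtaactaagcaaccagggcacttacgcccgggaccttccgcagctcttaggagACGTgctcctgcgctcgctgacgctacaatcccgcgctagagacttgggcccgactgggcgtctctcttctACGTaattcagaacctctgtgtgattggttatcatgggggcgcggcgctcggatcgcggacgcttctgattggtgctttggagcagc
Sec22b: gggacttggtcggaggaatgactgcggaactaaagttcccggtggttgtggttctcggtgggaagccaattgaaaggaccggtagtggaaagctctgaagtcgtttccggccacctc
Calu: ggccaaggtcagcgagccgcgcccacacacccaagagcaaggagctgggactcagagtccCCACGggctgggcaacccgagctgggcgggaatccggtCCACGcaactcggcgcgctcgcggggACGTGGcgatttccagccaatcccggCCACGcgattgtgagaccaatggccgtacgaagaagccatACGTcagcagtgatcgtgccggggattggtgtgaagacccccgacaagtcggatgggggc

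Such letters were common in the promoter windows that WT-only regions touched, where a window runs from 250 bases before to 50 after a listed start. ACGT was in 63.9% of their 119 windows, against 52.6% of the 2199 windows at shared regions and 30.9% of 32815 windows in all. CCACG was in 58.0%, 63.2% and 32.8%. The GC content of these windows was 58.0%, 66.9% and 53.8%, and its part in the motif shares was not tested. TGACGTGG, a longer XBP-1 motif, was in 0.840% of the windows at WT-only regions, 4.05% at shared regions and 0.677% in all. The element CCAAT followed after 9 bases by CCACG was in 0 of the 119 windows, against 0.682% at shared regions and 0.119% in all. ERSE-II, a related element, was also in 0 of them, against 0.318% and 0.0366%. CCAAT alone was in 42.9%, 31.8% and 37.4%. A match is a description of letters in a window and not a binding site, and only 87 of the 220 regions touched a window.

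About as many WT-only regions lay at gene ends as away from them. Of the 220, 113 (51.4%, 95% Wilson interval 44.8% to 57.9%, counting error only) lay within 1 kb of an end of a protein-coding gene or a listed start. A further 56 (25.5%) lay inside a coding gene and 51 (23.2%) outside coding genes. Of the shared regions, 90.5% lay at gene ends, 5.22% inside genes and 4.27% outside. Over all merged regions the shares were 36.7%, 37.5% and 25.8%. The WT-only regions were thus placed between the shared regions and the full set. With regions chosen without WT replicate 1, WT replicate 2 or Ern1-LKO replicate 2, the share at gene ends was 27.7%, 15.9% or 86.1%, so it followed the libraries that set the choice. The median width of WT-only regions was 396 bp (197 to 1096 bp), between 790 bp for shared regions and 258 bp for all merged regions. These are widths of merged regions, so they also depend on how many libraries had a peak there.

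Where they lay near a start, their summits sat close to it. Of 213 regions on chromosomes with listed starts, 106 had the summit within 1000 bp of one, 67 downstream and 39 upstream, with a median position 44 bp downstream. The shared regions had their median 105 bp downstream. Within 200 bp of a start lay 34.3% of WT-only and 49.3% of shared regions, and beyond 10 kb lay 33.8% and 14.9%.

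**Figure D1:**
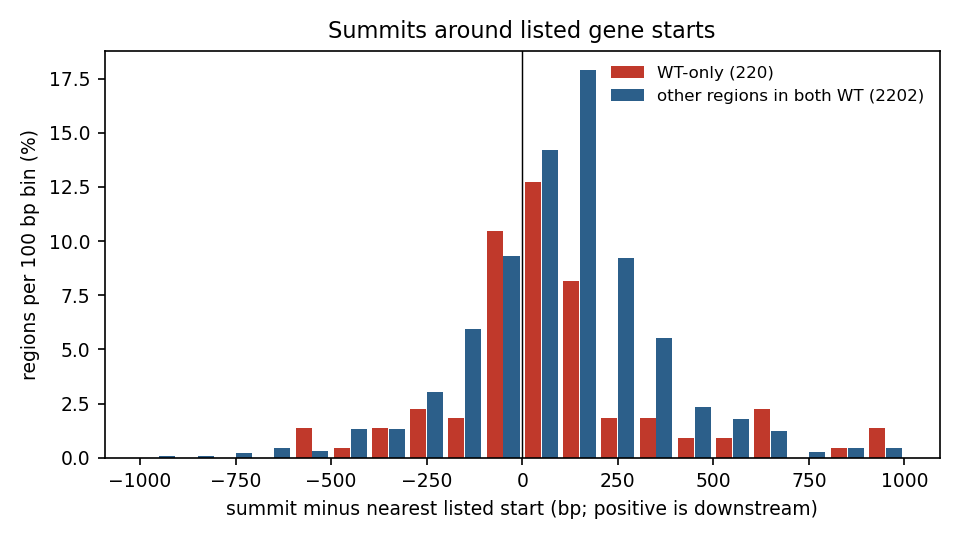
Position of the summit relative to the nearest listed start, in 100-bp bins, as a percentage of all 220 WT-only regions (red) and all 2202 shared regions (blue, labelled other regions in both WT). The tallest red bar is the bin from 0 to 100 bp downstream (12.7%), and the tallest blue bar is the next bin (17.9%).

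The fold enrichment of a peak, the authors' ratio of tags at the summit to local background, was used to rank regions within each list. Among WT-only regions it ran from 2.81 to 32.6 in WT replicate 1 (median 6.39) and from 2.77 to 32.2 in WT replicate 2 (median 6.61). The median WT-only peak stood at percentile 71.6 of the WT replicate 1 list and 51.6 of the WT replicate 2 list. For shared regions these percentiles were 45.4 and 94.6. In WT replicate 2, then, WT-only peaks were of middling height while shared peaks were near the top. Both folds reached 5 in 117 WT-only regions and 10 in 18 of them.

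The WT libraries ranked these regions differently. Spearman's rho between their folds was 0.239 over the 220 regions, a description over regions of the same libraries. WT replicate 1 had the higher fold in 101 regions and WT replicate 2 in 119. The summits of the replicates lay a median of 53.5 bp apart and within 100 bp in 167 regions. The choice itself favours close summits, since both replicates had to have a peak in the same merged region.

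**Figure D2:**
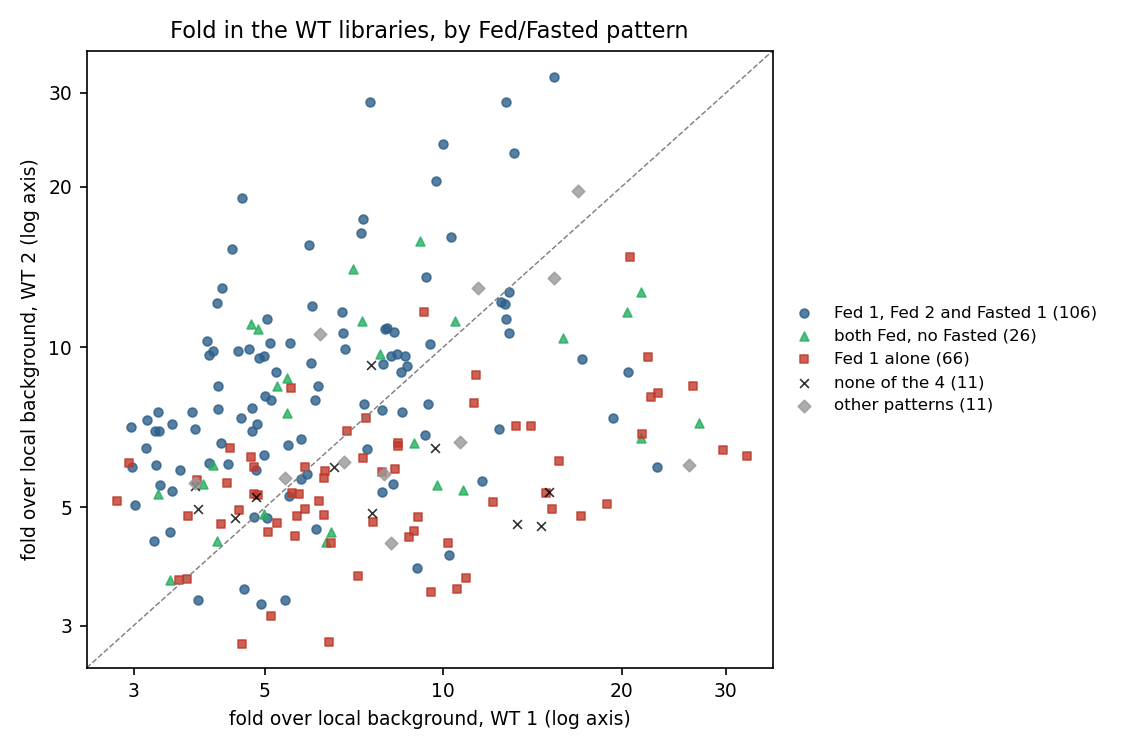
Fold over local background in WT replicate 1 (x, log axis) and WT replicate 2 (y, log axis) for each of the 220 WT-only regions, with the dashed line marking equal folds. Marker shape and colour give the Fed and Fasted libraries that also had a peak, and regions with a peak in Fed replicate 1 alone (red squares) lie mostly below the line, 49 of 66 of them.

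Genes of ER to Golgi vesicle transport stood at WT-only regions with some of the highest WT folds. Of 79 listed genes of the COPII coat, the COPI coat and the ER to Golgi SNAREs and tethers, 9 (11.4%) had an end within 1 kb of a WT-only region. Over all 21900 coding genes the number was 145 (0.662%). At shared regions the same counts were 48 of 79 (60.8%) and 2294 of 21900 (10.5%). XBP-1 is already known for vesicle transport genes, and the lists were chosen with earlier results of these data in view, so no test was run on them.

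Stx18, a SNARE that receives vesicles returning to the ER, had the highest mean WT percentile of the 220 (chr5:38039102-38039617). Its folds were 15.4 and 32.2 in WT replicates 1 and 2. They were 11.7 and 11.4 in Fed replicates 1 and 2, and 14.0 in Fasted replicate 1, with no peak in Fasted replicate 2. The summit lay 139 bp downstream of the listed start. Stx18 was therefore peaked in 5 of the 6 wild-type libraries, as were most members described next. The nearest Ern1-LKO peak to the Stx18 region was 119397 bp away, against a median of 13240 bp over the WT-only regions. This gap varied widely among the secretory genes described below. It was 182 bp at Stt3a, 220 bp at Sec16a, 797 bp at Bet1l, 25454 bp at Copg1 and 45121 bp at Sec11a.

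The COPI subunits Copg1 and Cope, which form the coat of vesicles moving back from Golgi to ER, both had peaks in the same 5 libraries. Copg1 (chr6:87887728-87888305) had folds of 13.2 and 23.1 in WT, 15.96 and 13.8 in Fed, and 5.36 in Fasted replicate 1. Cope (chr8:70302318-70303149), which shares its region with the RNA helicase gene Ddx49, had 9.36 and 13.6 in WT, 18.2 and 10.6 in Fed, and 9.76 in Fasted replicate 1. In both genes the Fasted replicate 1 fold was below both Fed folds.

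The COPII coat drives export from the ER, and 3 of its 29 listed genes lay at WT-only regions. Sec23b, an inner coat subunit (chr2:144555919-144556577), had folds of 7.52 and 28.8 in WT, 19.0 and 21.8 in Fed, and 10.2 in Fasted replicate 1. Sec16a, a scaffold of ER exit sites (chr2:26445740-26446576), had 12.5 and 12.2, 18.8 and 13.4, and 9.12 in the same order, and it also lay at a shared region. Sec13, an outer coat subunit (chr6:113740516-113740796), was among the lowest of all members, with 3.25 and 4.33, 7.91 and 5.15, and 7.37. Among the coat genes Sec13 was thus the lowest in both WT libraries. At the shared regions stood 21 of the 29 COPII and 14 of the 21 COPI genes.

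The SNAREs Bet1, Bet1l and Sec22b act in fusion of vesicles between ER and Golgi. Bet1 (chr6:4086523-4087066) had folds of 17.2 and 9.50 in WT, 37.4 and 8.66 in Fed, and 8.13 in Fasted replicate 1. Bet1l (chr7:140855996-140856422), near Ric8a, had 7.29 and 11.2 in WT and 10.1 and 4.75 in Fed, with no Fasted peak. Sec22b (chr3:97901110-97901547) had 2.98 and 7.08, 8.17 and 7.45, and 8.37. Of these, Bet1l was the only one with peaks in both Fed and no Fasted library, and it also lay at a shared region.

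Of 28 listed ER chaperone and folding genes, 0 had an end within 1 kb of a WT-only region, and 27 lay at a shared region. With 0.662% of all coding genes at WT-only regions, 0 in a list of this size is near the background. Hspa13, an ER-associated HSP70 gene outside this list, did lie at one. The other ER groups gave 1 to 3 genes each. Degradation gave 1 of 26 (21 at shared regions), translocation and signal peptide processing 1 of 25 (22), N-glycosylation 3 of 40 (19), and regulators of the unfolded protein response 1 of 22 (9). Over the 8 secretory lists together, 15 of 220 genes (6.82%) lay at WT-only and 146 at shared regions.

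Atf6, the third ER stress sensor beside IRE1 and PERK, was the 1 regulator (chr1:170867510-170868046). Its folds were 10.2 and 4.08 in WT, 15.97 and 4.796 in Fed, and 7.74 in Fasted replicate 1. Os9, the degradation lectin whose promoter is shown above, had 7.88 and 5.34, 22.2 and 6.49, and 9.59 (chr10:127120770-127121391). Sec11a, a catalytic subunit of the signal peptidase (chr7:80947159-80948056), had 5.76 and 6.71, 6.86 and 12.9, and 5.62. Replicate 1 held the higher Fed fold for Atf6 and Os9 and replicate 2 for Sec11a.

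Of the 3 N-glycosylation genes, 2 had no Fasted peak. Gmppa and Gmppb are the subunits of the enzyme that makes GDP-mannose, and Stt3a is a catalytic subunit of oligosaccharyltransferase. Gmppa (chr1:75435784-75436212) had folds of 11.4 and 8.86 in WT and 29.5 in Fed replicate 1, and no peak in the other 3 libraries. Stt3a (chr9:36767754-36768075) had 11.3 and 7.84 in WT and 17.0 in Fed replicate 1 alone, and it also lay at a shared region. Gmppb (chr9:108049044-108049463), near Ip6k1, had 12.4 and 7.02, 8.10 and 8.33, and 5.22, the same library pattern as Atf6, Os9 and Sec11a.

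**Figure D3:**
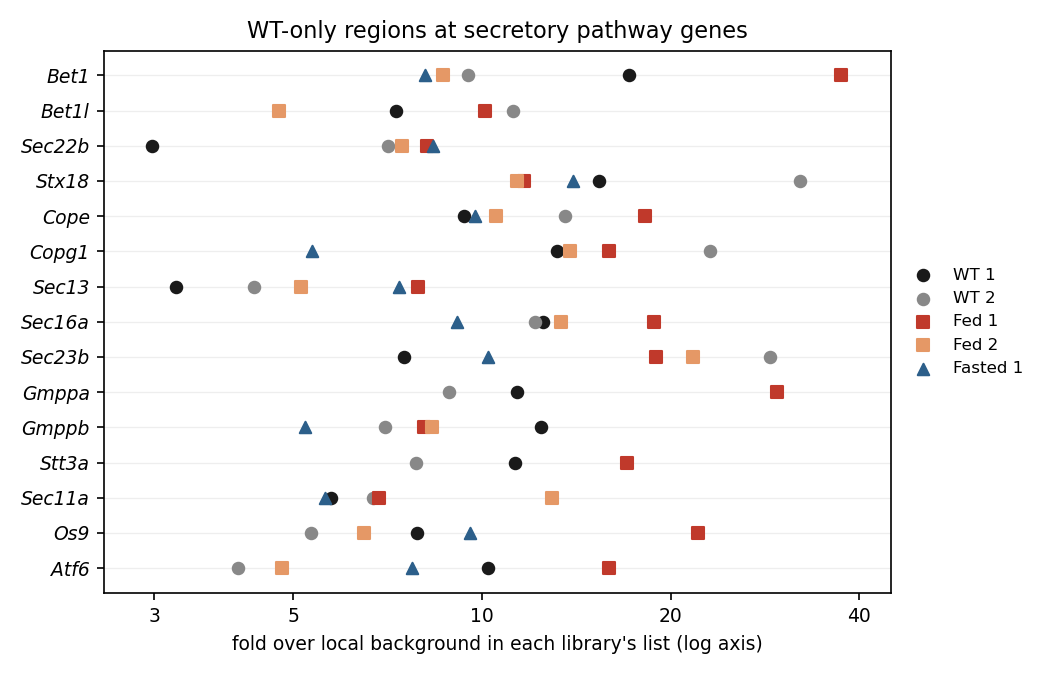
Fold over local background (log axis) of the WT-only regions at 15 secretory pathway genes, 1 row a gene and 1 point for each library with a peak. A missing point means no peak, Fasted replicate 2 and both Ern1-LKO libraries had none at any of the 15, and Bet1l, Gmppa and Stt3a also lack Fasted replicate 1.

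Outside the secretory lists few fixed groups were represented. Got1, the aspartate aminotransferase of the cytosol, was the 1 of 20 genes of gluconeogenesis and amino acid catabolism (folds 3.32 and 6.95 in WT, 5.64 and 5.71 in Fed, 5.86 in Fasted replicate 1). Brca1, which acts in repair of DNA breaks and shares its region with Nbr1, was 1 of 20 (10.8 and 5.39 in WT, 17.0 and 10.2 in Fed, no Fasted peak). The kinase gene Prpf4b (7.98 and 10.8, 16.2 and 15.3, 7.99) and the deadenylase gene Parn (12.9 and 10.7, 5.22 and 9.95, 6.32) were 2 of 26 genes of splicing and mRNA decay. None of these 4 genes lay at a shared region.

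Lists of lipid and plasma protein genes had no member here, which at 15 to 25 genes a list is near the 0.662% of all coding genes. Lipogenesis had 0 of 23 genes at WT-only regions and 8 at shared regions, VLDL assembly 0 of 15 and 1, bile acid metabolism 0 of 15 and 1, and acute phase proteins 0 of 20 and 0. The lysosome list had 0 of 25 and 5, the proteasome list 0 of 24 and 8, and the respiration list 0 of 24 and 3. Of 38 marker genes of hepatocytes and 5 other liver cell types, 0 lay at WT-only regions and 1 at a shared region. Peaks at such genes would be binding and not expression, so the markers say nothing of which cells were sampled.

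Other regions among the 25 with the highest mean WT percentile were at or near a mix of genes. Near Tram1, a translocation protein of the ER membrane, the region lay 2782 bp outside the gene (chr1:13561551-13561911). Its folds were 16.9 and 19.6 in WT, 27.3 and 6.57 in Fed, and 5.78 and 5.84 in Fasted, so all 6 wild-type libraries had a peak. Near Tm9sf2, an endomembrane protein gene, the region lay 1756 bp outside it (chr14:122104831-122105326), with 21.6 and 12.7 in WT and 23.3 and 5.20 in Fed. Hspa13, an ER-associated member of the HSP70 family, had 12.9 and 12.7 in WT, 14.4 and 8.33 in Fed, and 6.62 in Fasted replicate 1 (chr16:75766410-75767261). Of these, the region near Tm9sf2 had no Fasted peak, and neither had Piga (15.9 and 10.4 in WT, 14.2 and 6.63 in Fed).

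Tmem125 (chr4:118543752-118544330) had one of the highest WT replicate 2 folds, 28.8, beside 12.7 in WT replicate 1, 23.2 and 16.9 in Fed and 14.4 in Fasted replicate 1. Mogat1, a monoacylglycerol acyltransferase gene, held its region inside the gene (12.7 and 12.0 in WT, 9.63 and 6.85 in Fed, 4.27 in Fasted replicate 1). Regions at Itfg2 and Ccdc167 and one 25232 bp from AU041133 also had peaks in the same 5 libraries. Regions at Zscan26, inside Morn5 and near Snap25 had peaks in both Fed libraries and no Fasted library. Those at Tmem205 and Ccdc159, inside D630023F18Rik and near Nabp1 had a peak in Fed replicate 1 alone. Nedd4l, a ubiquitin ligase gene, had peaks in replicate 1 of Fed and of Fasted. A region far from any coding gene (nearest Fzd8, 277111 bp) had a peak in all 6 wild-type libraries.

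Among WT-only regions, 10 shared their nearest coding gene with another, over 5 genes. These were Hmox1, Jade1, Pcdh1, Rhof and Tex2, singled out after their values were seen. A nearest gene need not be close, and 1 of the Jade1 regions lay 146915 bp from that gene. The matching share over all merged regions is not given here. Hmox1, heme oxygenase 1, is a stress-response gene known for distal enhancers. Its regions lay 3766 bp (chr8:75089572-75089852) and 9486 bp (chr8:75083880-75084132) from the gene. The nearer had folds of 8.39 and 6.52 in WT and 9.26 in Fed replicate 1 alone. The farther had 6.08 and 7.94 in WT, 7.82 and 6.46 in Fed and 3.68 in Fasted replicate 1. So only the farther was listed in a Fasted library.

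The Fed and Fasted libraries were not used to choose the regions and were labelled wild-type livers of the same strain. A peak was found at 205 of the 220 in Fed replicate 1 (93.2%), 137 in Fed replicate 2 (62.3%), 114 in Fasted replicate 1 (51.8%) and 4 in Fasted replicate 2 (1.82%). Over all merged regions the shares were 60.4%, 63.3%, 68.1% and 27.9% in that order, so the Fed replicate 2 share was near that of all regions. Among WT-only regions, both Fed shares were above both Fasted shares. The mean was 77.7% ± 21.9 for Fed and 26.8% ± 35.4 for Fasted (SD, n = 2), a difference of 50.9 percentage points. The exact two-sided permutation test gave p = 0.333, which is the smallest that 2 libraries against 2 can give. The difference cannot pass a threshold in this design, and the Fasted libraries themselves lay far apart.

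List length moved with these shares. Fed replicate 1 had the longest list and Fasted replicate 2 the shortest, and with the 19237 highest-fold peaks of each list the shares were 72.3%, 30.9%, 14.1% and 1.82% in the same order. The order of the libraries was then the same, and the mean difference was 43.6 percentage points. The full-length difference was 25.9 points without Fasted replicate 2. It was 17.5, 12.0 and 19.1 points for regions chosen without WT replicate 1, WT replicate 2 and Ern1-LKO replicate 2. Without WT replicate 1 the exact permutation p was 1.0, so both Fed shares were then no longer above both Fasted shares.

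**Figure D4:**
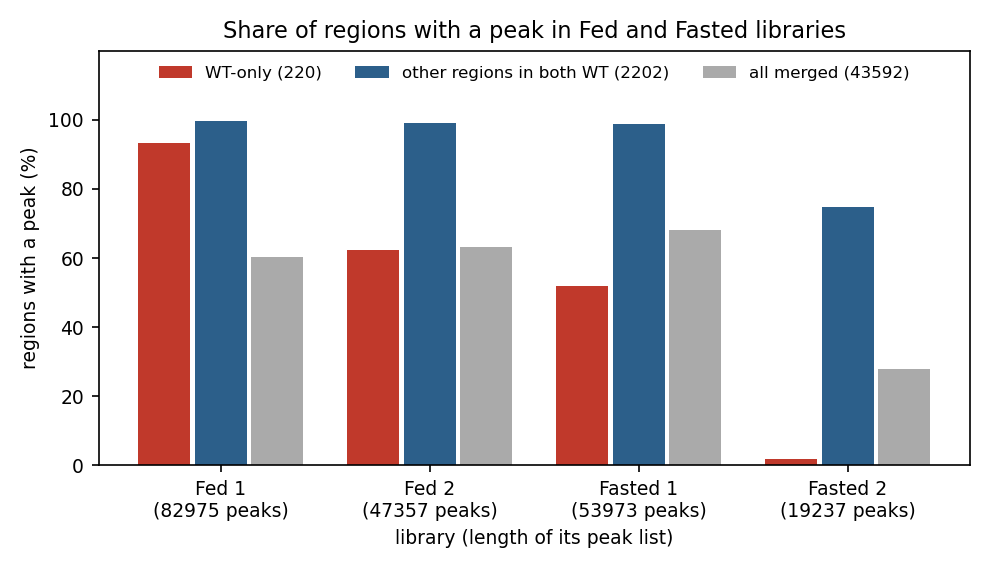
Share of WT-only regions (red), shared regions (blue, labelled other regions in both WT) and all merged regions (grey) with a peak in each Fed and Fasted library, with the length of each list on the x axis. The red bars run from 93.2% to 1.82%, while the blue bars stay between 74.8% and 99.7%.

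Shared regions were found in the Fed and Fasted lists more often than WT-only regions, in 4 of 4 libraries. Their shares were 99.7%, 99.1%, 98.9% and 74.8% in the library order used above, with a mean of 93.1% ± 12.2 (SD, n = 4) against 52.3% ± 37.9 for WT-only regions. The difference of -40.9 percentage points had p = 0.13 in an exact two-sided sign-flip permutation test, the smallest that 4 libraries can give. The WT-only deficit was -21.7 points in Fed and -60.0 points in Fasted, and the test of that difference (38.3 points) gave an exact permutation p of 0.333, again the smallest possible. The overall difference was -84.2 points with regions chosen without WT replicate 2 and -9.97 points without Ern1-LKO replicate 2. Shared regions also had higher folds in WT replicate 2 (median 13.5 against 6.61) and were wider, and the part of peak strength in the result was not tested. Over all merged regions the shares were 60.4%, 63.3%, 68.1% and 27.9%.

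One pattern over the Fed and Fasted libraries was the most frequent. In 106 (48.2%) a peak was listed in both Fed libraries and in Fasted replicate 1 but not in Fasted replicate 2, and 78 of the 106 lay at gene ends. The share was 27.2% over all merged and 23.7% over shared regions. Most shared regions (74.7%) had a peak in all 4 libraries instead, against 0.909% of WT-only regions. Another 66 (30%) had a peak in Fed replicate 1 alone, of which 22 lay at gene ends, against 5.24% of all merged regions with that pattern. The 66 also leaned to one WT library: 49 had the higher fold in WT replicate 1, against 29 of the 106. Fed replicate 1 and WT replicate 1 were the libraries with the most kept tags of their experiments (17.4 and 14.1 M), and their part in this pattern was not tested. Spearman's rho of the folds, over the regions with both peaks, was 0.459 between WT replicate 1 and Fed replicate 1, 0.153 with Fed replicate 2 and 0.07 with Fasted replicate 1. For WT replicate 2 it was 0.34, 0.423 and 0.247 in that order. Among the Fed and Fasted libraries it was 0.295 between Fed replicates, 0.406 between Fed and Fasted replicates 1, and 0.624 between Fed replicate 2 and Fasted replicate 1.

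**Figure D5:**
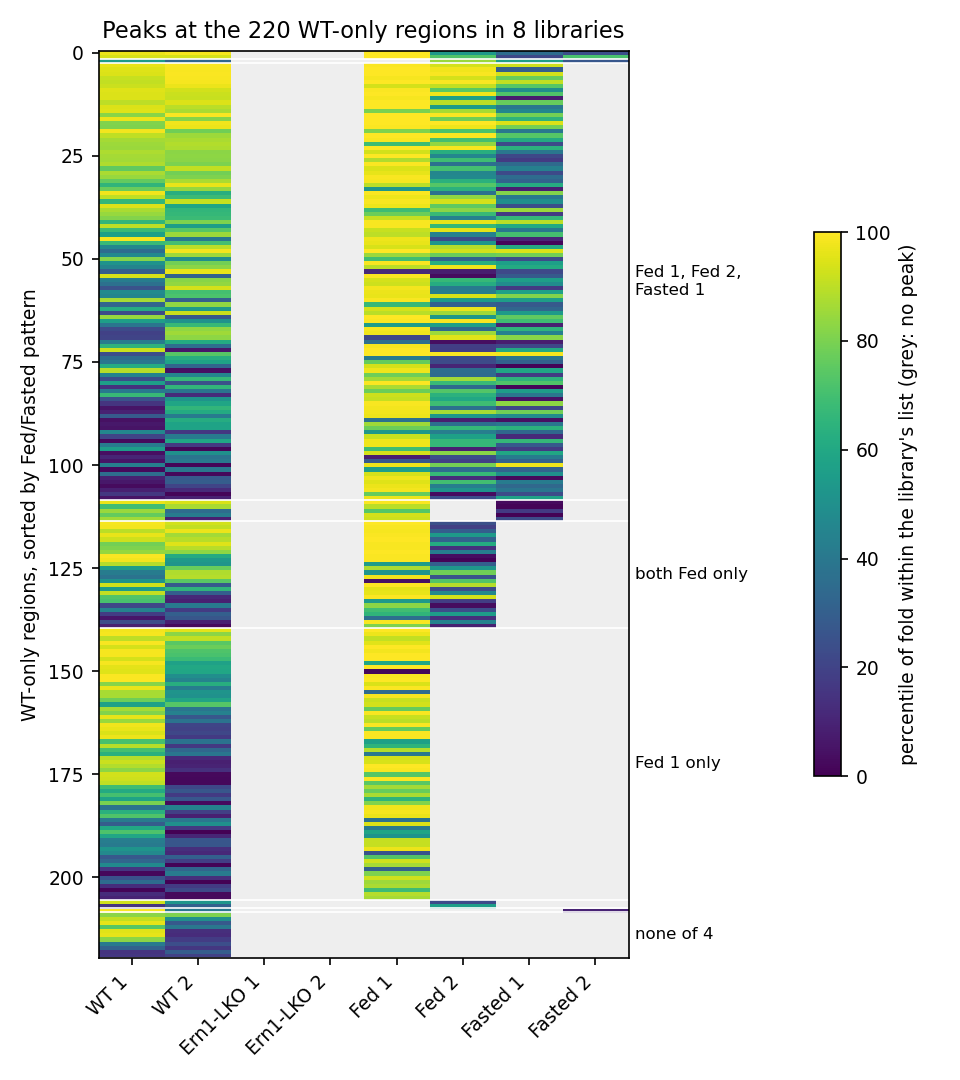
Each row is 1 of the 220 WT-only regions and each column 1 library, coloured by the percentile of the region's peak within that library's list (grey: no peak). Rows are sorted by the pattern over Fed and Fasted libraries and then by mean WT percentile, and the 2 Ern1-LKO columns are empty because the regions were chosen so.

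A subset stood out by a high fold in WT replicate 1 alone. Of 15 regions with a fold of at least 20 there, 12 had a fold below 10 in WT replicate 2, and this cut was set after the values were seen. Of the 12, 11 had a peak in Fed replicate 1, 4 in Fed replicate 2 and 2 in Fasted replicate 1, and 2 lay at a gene end. Over all 220 regions the shares were 93.2%, 62.3%, 51.8% and 51.4% in that order, so the Fed replicate 1 count was near the share of all members. Plekha6 had the highest WT replicate 1 fold of all, 32.6, with 6.25 in WT replicate 2 and 16.7 in Fed replicate 1. Others were near the oligosaccharyltransferase subunit gene Ostc (26.99 and 7.19 in WT, 14.2 and 4.07 in Fed), 7410 bp from Pdia4 (23.0 and 8.21 in WT, 8.66 in Fed replicate 1) and inside Txndc5 (22.5 and 8.06 in WT, 19.3 in Fed replicate 1). Pdia4 and Txndc5 encode ER protein disulfide isomerases, and these regions are not at the gene ends counted above.

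Peaks in both Fed libraries and neither Fasted library were found at 26 regions (11.8%), against 1.88% of all merged regions and 0.454% of shared regions. The reverse, both Fasted and neither Fed, was seen at 0 of the 220, against 0.502% of all merged regions. Fasted replicate 2 had the shortest list, so the Fed-only class here amounts to a peak in both Fed libraries and none in Fasted replicate 1. The 10 with the highest WT percentile were at or near Tm9sf2, Morn5, Zscan26, Piga, Snap25, Bhlhe41, Bet1l, Saraf, Ostc and Dcps. Saraf, a regulator of calcium entry at the ER, had the highest Fed replicate 1 fold of all 220 regions, 44.0, with 5.97 in Fed replicate 2 and 7.81 and 9.71 in WT. That region lay 1827 bp outside the gene (chr8:34152413-34152752). Bhlhe41, a circadian repressor, had 7.03 and 14.0 in WT and 10.2 and 7.11 in Fed. Dcps, the scavenger of mRNA caps, had 21.6 and 6.75 in WT and 10.9 and 3.55 in Fed.

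The 4 regions with a peak in Fasted replicate 2 were few enough to name. The region near Tram1 and the one with Fzd8 as its nearest coding gene had a peak in all 4 Fed and Fasted libraries. That pattern made up 0.909% of WT-only regions, against 21.1% of all merged and 74.7% of shared regions. One inside Cmtm8 had peaks in Fed replicate 2 and both Fasted libraries, and one near S100a10 in Fasted replicate 2 alone (fold 4.86, with 26.0 and 6.00 in WT). The last of these patterns, and Cmtm8, were singled out after their values were seen.

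No single Fed or Fasted library had a peak at 11 WT-only regions (5.0%), against 21.9% of all merged and 0.0908% of shared regions, and 0 of the 11 lay at a gene end. Slc2a2, the hepatic glucose transporter GLUT2, held one of them inside the gene (chr3:28722590-28722892), with folds of 15.1 and 5.36 in WT. Cd47, the surface signal that restrains phagocytosis, held another (6.54 and 5.95). The rest were at or near Susd1 (7.57 and 9.26), Ppm1l (9.67 and 6.46), Ginm1 (13.3 and 4.65), Etfbkmt (14.6 and 4.61), Ralgapa2, Kdm2a, Stard10, Pop1 and Spocd1. The lists called on pooled libraries had a peak at 2 of the 11, Stard10 in pooled Fed (fold 3.03) and the region near Ralgapa2 in pooled Fasted (3.37).

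Members close to the edge of the rule are given as a description. The smallest gaps to an Ern1-LKO peak were 26 bp near Ralgapa2, 79 bp at St13 and Xpnpep3, 83 bp at Ptp4a1, 106 bp at Ptbp1 and 126 bp at Ccdc77 and Kdm5a. In all, 24 regions lay within 500 bp of an Ern1-LKO peak and 121 lay beyond 10 kb. On the other side, shared regions with the smallest overlap between a WT and an Ern1-LKO peak were at Erlec1 and Asb3 (150 bp), Nhsl1 (156 bp), Rangap1 (159 bp), Rps16 (160 bp) and Nucb1 (172 bp). The weakest Ern1-LKO peaks that kept a region out, by −log10 q, were at Wnt7b (2.24), Dctn6 (2.46), Srp54a (2.76), Fos (2.91) and Trip11 (2.91).

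The lists called on pooled libraries gave a further view. The pooled WT list had a peak at 218 of the 220 (99.1%), against 29.0% of all merged regions. It was called on the tags of the WT libraries that the choice used, so this count follows from the choice. The 2 regions it lacked were inside Pop1 and near Spocd1. The pooled Fed list had a peak at 205 (93.2%, against 75.4% of all merged regions) and the pooled Fasted list at 85 (38.6%, against 60.5%). The pooled Ern1-LKO list had a peak at 6 (2.73%, against 30.2%).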

How the data were processed

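XBP-1 ChIP-seq was run on 8 liver libraries and compared with 2 input libraries. The submitters' processing notes list Bowtie2 2.2.5, MACS2 2.2.1, FastQC 0.11.3 and bcl2fastq, with build mm10. Per the file headers, peaks were called with MACS 2.1.1.20160309 at a q cutoff of 0.05, keeping 1 tag per position. The authors deposited 12 lists, 1 per library and 1 per pooled group. Per the file headers each peak has a pileup signal, a −log10 p-value, a −log10 q-value and a ratio called fold enrichment over local background, all the authors' own. The pileup signal was not tested. The ratio ranked peaks within a list, with percentile 100 the highest, and −log10 q filtered them.

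Peaks of the 4 WT and Ern1-LKO libraries were merged at 1 bp of overlap (Python 3.11.15, pandas 2.3.3, numpy 2.4.6). Genes came from RefSeq GRCm38.p6, in which 21900 coding genes had coordinates and 17492 also a listed start. Gene ends are the annotated start and end, matched within 1 kb. Only shares over libraries were tested, by exact permutation (scipy 1.17.1). The merging was tested on simulated lists, in which 160 of 160 planted WT-only regions were recovered. The regions and the 25 gene lists were chosen with earlier results of these data known. Regions were named if among the 25 highest in mean WT percentile, at a listed gene, or the leading 10 of a Fed and Fasted class, or among the 5 nearest each edge of the rule; others are said to be chosen later, and a few that meet this rule are not reported here. Alternatives were stricter peaks, wider margins, equal list lengths and leaving out each library. No reads or coverage were analysed here, so values at regions with no peak are not used here.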

Additional observations from a re-analysis of the deposited data

Results flagged for a closer look

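The pooled Ern1-LKO list had a peak at 6 of the 220 WT-only regions (2.73%), against 30.2% of all merged and 93.96% of the shared regions. It was called on the tags of the same Ern1-LKO libraries that the choice used, so a low count and low folds follow from the choice and support nothing. The pooled fold was 3.14 against 10.3 in pooled WT at Sec23b, 4.59 against 17.2 inside D630023F18Rik, 4.60 against 11.3 inside Kyat3, 4.46 against 7.98 near Snap25, 4.25 against 8.998 near Arid5b and 5.16 against 6.68 near Ralgapa2. Pooled lists have no replicates, so these differences have no test. Kyat3 and Arid5b are named because they are among these 6.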

How the results depend on the processing

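The number of WT-only regions was 132 with a fold of at least 5 and 118 with the 698 highest-fold peaks of each WT and Ern1-LKO list, against 220. It was 197 with a −log10 q of at least 5, 206 with a 50% overlap and 196 with a 500-bp margin, and was 214 without regions in the pooled Ern1-LKO list. Leaving out 1 of the 4 libraries gave 240 to 9968 regions and 15.9% to 86.1% at gene ends, and the cause was not tested. The values were 9968 and 27.7% without WT replicate 1, 3946 and 15.9% without WT replicate 2, and 1975 and 86.1% without Ern1-LKO replicate 2. Without Ern1-LKO replicate 1 the values were 240 and 50.4%. A 5-kb window gave 62.7% at gene ends, by its own width, and distance from the summit, added after seeing the data, gave 50.5%.

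The Fed minus Fasted difference kept its sign under all 16 alternatives run. Of these, the replicate block changed only the permutation and could not move the difference. The range was from 12.0 points (without WT replicate 2) to 75.9 points (without Fasted replicate 1). The difference was 17.5 without WT replicate 1 (exact permutation p = 1.0), 19.1 without Ern1-LKO replicate 2 and 25.9 without Fasted replicate 2. The difference between WT-only and shared regions also kept its sign under all 15, from -84.2 points (without WT replicate 2) to -9.97 (without Ern1-LKO replicate 2). With the replicate number as a block the Fed minus Fasted difference was 50.9 points with an exact permutation p of 0.5, the smallest possible, and the labels do not say that the numbers pair animals. No test here could pass 0.05. No peak in the shortest lists, of 698 and 19237 peaks, does not show absence of binding. These lists came from more kept tags (12.0 and 9.62 M, M is 1e6) than the longer lists of their groups (4.34 and 8.38 M).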
